A study of Homo sapiens with 6 samples.

Results

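Lower glycolysis turns a phosphorylated sugar fragment into pyruvate, and lactate dehydrogenase then turns pyruvate into lactate that leaves the cell. The 10 genes described here encode that route: GAPDH, PGK1, PGAM1, ENO1, ENO2, PKM, LDHA, LDHB, SLC16A1 and SLC16A3. They were picked by symbol for their place in the route, with earlier results of these data known, and all 10 of the 10 were found among the 14574 genes of the deposited table and among the 14561 genes that passed a filter on low values. HCT116 cells, an established human line from a colorectal carcinoma, carried either intact LARP1 (parental) or a knockout of LARP1. Both genotypes had 48 h of 250 nM TAK228, which inhibits mTOR, with fresh drug after 24 h, so no group was untreated. The protocol speaks of pools and names no knockout clone. RNA came from pooled gradient fractions between the small ribosomal subunit and the single ribosome, and not from polysomes. There were 2 RNA-seq libraries per genotype and 2 transcription start site (TSS) libraries from the parental RNA. In such bulk RNA, less mRNA per cell and less of it in this fraction cannot be told apart.

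GAPDH and PGK1 make the first ATP of this route, PGAM1 and the enolases ENO1 and ENO2 rearrange the intermediate, and PKM, pyruvate kinase, makes ATP and pyruvate. Lactate dehydrogenase is a tetramer of LDHA and LDHB subunits, and it restores the NAD+ that GAPDH uses. SLC16A1 and SLC16A3 encode the monocarboxylate carriers MCT1 and MCT4, which move lactate with a proton across the plasma membrane. LARP1 binds the cap and the terminal oligopyrimidine (TOP) motif, a pyrimidine run that begins with a C at the very start of mRNAs for ribosomal proteins and translation factors.

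The starts of the 3 members that fell in the knockout, and of LDHA and ENO1 as their partners in a gene pair, are shown because LARP1 reads the first bases of an mRNA. Each window holds the 15 bases before and the 15 bases from the start that RefSeq annotates on GRCh38.p14, 5′ to 3′ on the strand of the gene, with its longest pyrimidine run in capitals.
LDHB: gCCCCCTCCTCCCTCCTTgcagagccggcg
LDHA: cgcgCCCagctcagagtgctgcagccgctg
GAPDH: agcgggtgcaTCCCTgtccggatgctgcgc
ENO2: gccgccgccgccactgccaCTCCCgctctc
ENO1: gcgggcggcgcggacagtaTCTgtgggtac
The windows lie at chr12:21657828-21657857 (minus strand) for LDHB, chr11:18394548-18394577 (plus) for LDHA, chr12:6535249-6535278 (plus) for GAPDH, chr12:6914565-6914594 (plus) for ENO2 and chr1:8878672-8878701 (minus) for ENO1. The LDHB window held a run of 17 pyrimidines that ran from position -14 to 3 bases into the transcript, while the longest run was 3 bases in the LDHA window shown and 5 in that of GAPDH and of ENO2. Of 35116 annotated starts, counted without 1 chromosome that holds no member, 0.524% had a run of at least 17 in the same window. A search was made for a C at the start followed by at least 4 bases that are each C or T, on the strand of the gene only. It found 0 of the 14 annotated starts of the 9 members with an entry and 4.07% of the 35116 starts. Among 81 starts of ribosomal protein genes, with the same chromosome left out, it found 54.3%. The LDHB start itself is a C followed by 2 further pyrimidines and a G, so the letters searched are not at that base. The GAPDH start in that table lies 1337 bases downstream of the gene start in GENCODE release 29, that of ENO2 835 and that of ENO1 564 bases. The nearest annotated coding transcript starts 38 bases away for GAPDH, 9 for ENO2, 1 for LDHA and 0 for ENO1 and LDHB. The LDHB start lies 48 bases from that of its principal transcript, and 100015 bases from the outermost start of the gene. Any of these windows may therefore miss the start most used in these cells. The window and the run length were chosen after the data were seen, and a run of letters is a description, not a binding site.

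The reads behind the table came to 19038642 to 26955481 per library. Mitochondrial genes took 64.4% to 71.4% of them, which left 6267820 to 9063478 reads elsewhere. Values are normalised read counts, which are gene reads divided by the size factor that the authors gave each library. A fold change is log2(value + 1) in knockout minus parental RNA-seq libraries, which understates the change of low genes, and a call is a limma adjusted p under 0.05 over all 14561 genes. LARP1 mRNA itself was 2.19-fold lower in the knockout (log2 fold change -1.13, SE 0.18, limma adjusted p = 2.86e-09), so its transcript was still present. Over all genes the median log2 fold change was -0.29, and 0.02 after subtracting from each library the level of its median gene (centring), so the changes of the 10 genes are given in both ways, and those of other genes with the deposited scaling unless centring is named. Colorectal epithelial markers had values for 6 of 8 genes, with summed values of 13094 to 13782 in the parental and 10343 to 11952 in the knockout RNA-seq libraries. Of these 6, 3 fell and 0 rose, where 25.1% and 3.77% of all genes did. The counts were 3 and 1 after centring, against 16.2% and 14.6% of all genes. KRT19, a keratin, fell by 0.85 and EPCAM, an adhesion protein, fell by 0.93 on the log2 scale (limma adjusted p = 1.03e-07 and 3.62e-06). CDH1, another adhesion protein, fell by 0.88 (limma adjusted p = 0.00383). The keratins KRT8 and KRT18 gave 0.12 and -0.11, CDX2 gave -0.01, and these were not called. Of the 9 markers of other cell types, 3 had values (COL1A1, COL3A1 and CD68) and the other 6 were not analysed here, summing to 185 to 213 in parental and 49.8 to 80.2 in knockout libraries. CD68, a lysosomal protein of macrophages, fell from 182 ± 12.8 to 12.2 ± 2.09 (SD, n = 2, limma adjusted p = 1.00e-34), and COL3A1, a fibrillar collagen, read 0 and 0 in parental and 31.3 and 23.2 in knockout RNA-seq libraries. Their part in the results below was not tested. Replicates are described as biological in the labels, but no culture is named for any of them, so the spread between libraries may be technical. With the deposited scaling, limma p-values rest only on that spread pooled over genes of similar level, not on the spread of each gene.

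In the knockout fraction, 3 of the 10 members fell and 0 rose: LDHB most, then ENO2 and GAPDH. The other 7, among them LDHA, PKM, ENO1 and both lactate carriers, were not called. Across all genes tested 25.1% were called lower and 3.77% higher. The median of the 10 members was -0.24 against -0.29 over all genes tested. After centring, GAPDH, ENO2 and LDHB fell, while PKM and PGAM1 rose, against 16.2% of all genes lower and 14.6% higher. Both knockout libraries lay below both parental RNA-seq libraries for 5 members and above them for 1, where 50.4% and 12.4% of all genes did so. After centring this held for 3 members below and 5 above, against 31.3% and 33.1% of all genes.

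**Figure D1:**
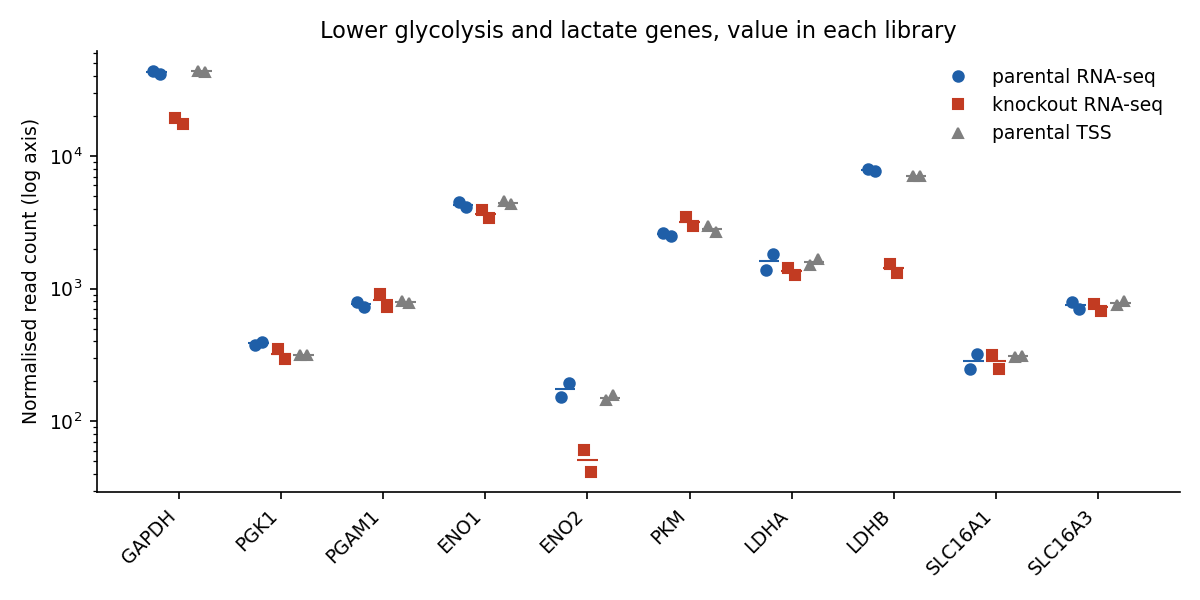
Normalised read counts (log axis) of the 10 genes in each library, with parental RNA-seq as circles, knockout RNA-seq as squares, parental TSS as triangles and a short line at each group mean (n = 2). The knockout values of GAPDH, ENO2 and LDHB lie below every parental value, while those of LDHA, PGAM1 and both SLC16A genes overlap the parental RNA-seq values.

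GAPDH, which makes NADH while it adds a phosphate to its substrate, was the most abundant member. The parental RNA-seq values were 43642 and 41763, and those of the knockout were 19409 and 17413. The groups were far apart relative to the distance between replicates. It fell 2.32-fold (log2 fold change -1.22, SE 0.15, limma adjusted p = 8.99e-15), or by 0.90 after centring (limma adjusted p = 2.11e-06). As a share of reads outside mitochondrial genes, which moves with every other transcript, GAPDH took 0.464% ± 0.0211 (SD, n = 2) in parental and 0.403% ± 0.00545 in knockout libraries.

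PGK1, the kinase that makes ATP after GAPDH, read 377 and 399 in the parental and 348 and 294 in the knockout libraries. Both knockout values were below both parental ones, by less than limma could call: the log2 fold change was -0.28 with a 95% interval from -0.64 to 0.09 (limma adjusted p = 0.27), and 0.03 after centring (limma adjusted p = 0.845). PGAM1, the mutase that moves the phosphate group, read 790.2 and 729 in parental and 904 and 729 in knockout libraries, so the groups overlapped. Its log2 fold change was 0.10 with an interval from -0.23 to 0.42 (limma adjusted p = 0.708). After centring PGAM1 rose by 0.41 (limma adjusted p = 0.00383); over all alternatives its adjusted p ran from 0.00294 to 0.963.

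The enolases parted. ENO1, the broadly expressed form, read 4484 and 4099 in parental and 3897 and 3385 in knockout libraries. The groups did not overlap, but its log2 fold change of -0.24 (95% interval -0.52 to 0.05, limma adjusted p = 0.217) was not called, and it was 0.07 after centring. Without knockout replicate 1 ENO1 was called at -0.34 (limma adjusted p = 0.0222), the lowest p of its alternatives, the highest being 0.786. ENO2, the form known as a marker of neurons, read 153 and 195 in parental and 61.1 and 41.7 in knockout libraries. Both knockout values lay far below both parental ones, and ENO2 fell 3.39-fold (log2 fold change -1.76, SE 0.25, limma adjusted p = 2.72e-11), or by 1.45 after centring (limma adjusted p = 6.29e-06). ENO2 rested on 114 and 160 reads in parental and 80 and 61 in knockout libraries, the fewest of any member. ENO2 made up 3.31% and 4.54% of the reads of both enolases in parental libraries and 1.54% and 1.22% in knockout libraries, shares that do not depend on scaling. The Wilson 95% intervals were 2.76% to 3.96% and 3.90% to 5.28% in the parental libraries, and 1.24% to 1.92% and 0.948% to 1.56% in the knockout libraries. The intervals of the 2 groups did not meet; they cover counting error only.

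PKM, which yields pyruvate, was the member with the highest fold change. It read 2646.5 and 2473 in parental and 3444 and 2944 in knockout libraries, so both knockout values were higher. The log2 fold change was 0.32 (95% interval 0.03 to 0.60, SE 0.15), and after adjustment over all genes it was not called (limma adjusted p = 0.0934). After centring PKM rose by 0.63 (limma adjusted p = 1.78e-05). Without knockout replicate 2 it was called with the deposited scaling at 0.43 (limma adjusted p = 0.00878); its alternatives gave adjusted p values between 9.97e-09 and 0.633.

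LDHA, the subunit that favours lactate formation, read 1378 and 1827 in parental and 1433 and 1275 in knockout libraries. The knockout values lay within or just below the spread of the parental pair. Its log2 fold change was -0.23 (95% interval -0.53 to 0.07, limma adjusted p = 0.268), or 0.08 after centring (limma adjusted p = 0.576). It was -0.43 without parental replicate 1 and -0.028 without parental replicate 2, so the parental replicates decide its size. LDHB, the subunit that dominates in heart and favours pyruvate formation, read 7992 and 7642 in parental and 1529 and 1309.6 in knockout libraries. The fall in LDHB was many times the distance between its replicates: 5.51-fold, with a log2 fold change of -2.46 (SE 0.15, limma adjusted p = 2.49e-61), and by 2.15 after centring (limma adjusted p = 1.62e-13). Of all genes tested, 2.76% had a lower log2 fold change than LDHB.

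**Figure D2:**
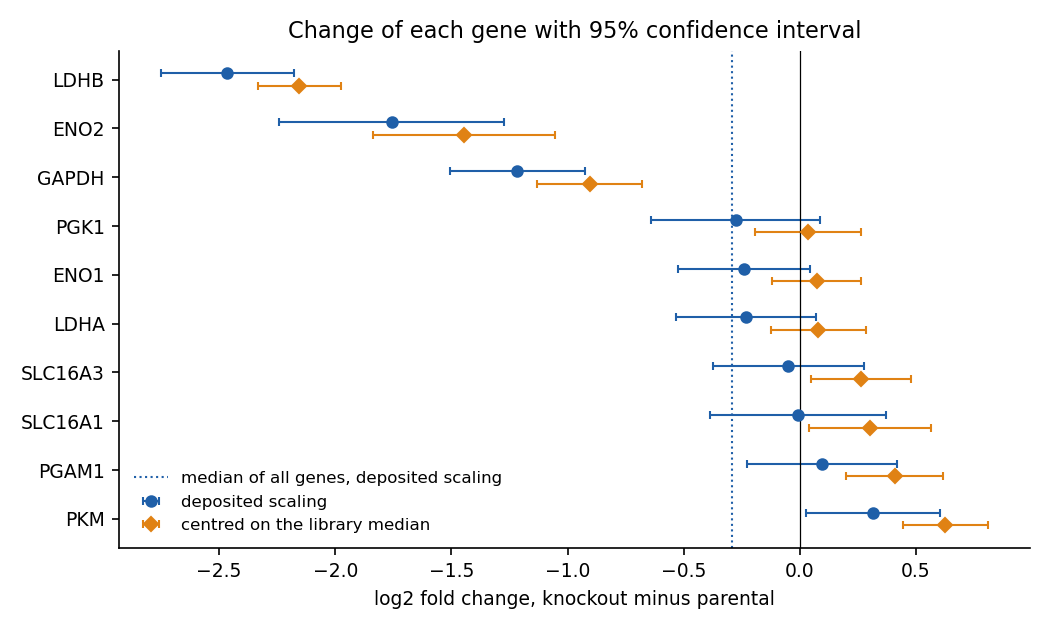
Log2 fold change of each gene, knockout minus parental RNA-seq libraries (n = 2 each), with limma's 95% confidence interval, for the deposited scaling (circles) and after centring each library on its median gene (diamonds); the dotted line is the median of all genes with the deposited scaling, -0.29. LDHB, ENO2 and GAPDH lie to the left of that line under both scalings, and the other 7 lie within 0.7 of zero.

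Set beside each other, the pair of lactate dehydrogenase transcripts went from unequal to nearly equal. The libraries held 5937 LDHB and 1024 LDHA reads in parental replicate 1, and 6270 and 1499 in parental replicate 2. In the knockout they held 2001 and 1876 reads in replicate 1, and 1918 and 1868 in replicate 2. LDHB therefore made up 85.3% (Wilson 95% interval 84.4% to 86.1%) and 80.7% (79.8% to 81.6%) of the reads of both genes in the parental libraries. In the knockout libraries its share was 51.6% (50.0% to 53.2%) and 50.7% (49.1% to 52.3%). The parental replicates differed from each other by more than counting error, and the knockout shares lay far below both. Per length, using the median annotated coding transcript (1420 bases for LDHB and 1826 for LDHA), LDHB was 7.46 and 5.38 times LDHA in the parental libraries and 1.37 and 1.32 times in the knockout libraries. The log2 ratio of LDHB to LDHA reads was 2.30 ± 0.33 (SD, n = 2) in parental and 0.07 ± 0.04 in knockout libraries, a difference of -2.23 or 4.71-fold. An exact two-sided permutation test over these 4 libraries gave p = 0.333, the smallest that 2 libraries per group allow. The 2 coding sequences match at 69.05% of aligned bases, and the longest stretch that their principal transcripts share is 17 bases, against reads of 150 bases. LDHB shares 997 exonic bases on the same strand with AC010197.2, a locus not analysed here, and reads there cannot be told apart.

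**Figure D3:**
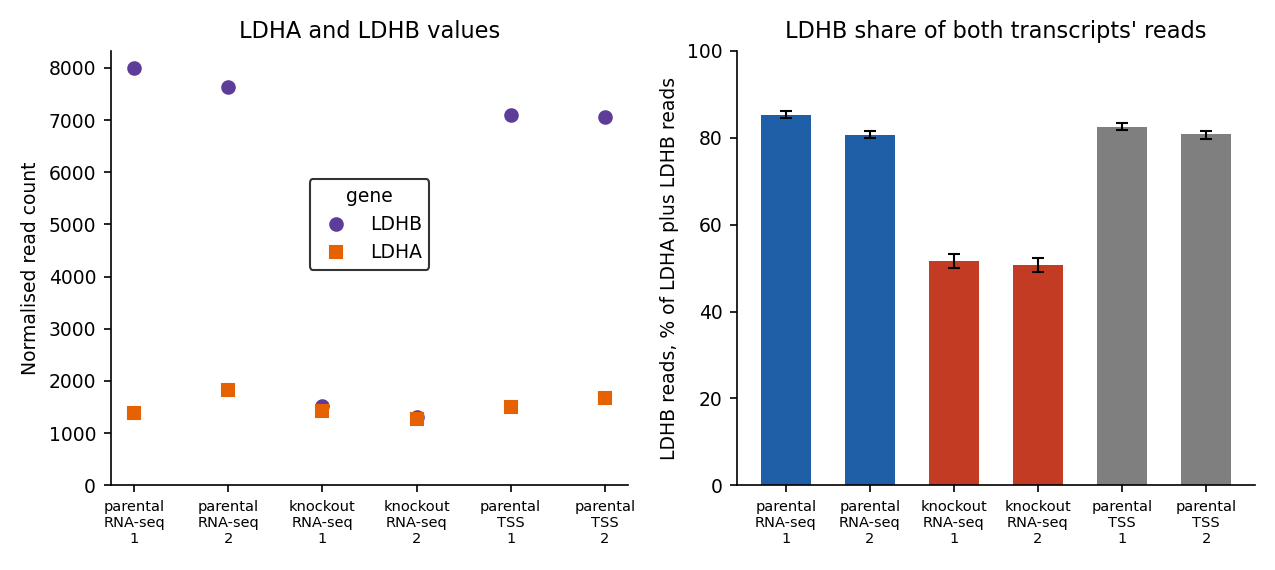
Left, normalised read counts of LDHB (circles) and LDHA (squares) in each library; right, LDHB reads as a percentage of LDHA plus LDHB reads, with Wilson 95% intervals. The LDHB share was 80.7% to 85.3% in the 4 parental libraries and 50.7% to 51.6% in the knockout libraries.

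Neither lactate carrier was called under either scaling. SLC16A1 (MCT1) read 248 and 322 in parental and 318 and 248 in knockout libraries, with ranges that overlapped almost fully. Its log2 fold change was -0.01 with a 95% interval from -0.39 to 0.37 (limma adjusted p = 0.98), or 0.30 after centring (limma adjusted p = 0.0746). SLC16A3 (MCT4), the carrier linked with lactate export from glycolytic cells, read 789 and 706 in parental and 768 and 677 in knockout libraries. Its log2 fold change was -0.05 (95% interval -0.37 to 0.28, limma adjusted p = 0.855), or 0.26 after centring (limma adjusted p = 0.0609). The log2 ratio of SLC16A3 to SLC16A1 reads was 1.40 ± 0.38 (SD, n = 2) in parental and 1.36 ± 0.13 in knockout libraries (exact two-sided permutation p = 1). These intervals do not show that either carrier stayed the same. After centring, both knockout values of each carrier lay above both parental ones, with 95% intervals of 0.04 to 0.56 for SLC16A1 and 0.05 to 0.48 for SLC16A3.

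Per kilobase of the median annotated coding transcript, the members spanned nearly 3 orders of magnitude in the parental RNA-seq libraries. GAPDH stood first at 33387 ± 1039 normalised reads per kilobase (SD, n = 2), followed by LDHB at 5505 ± 174, ENO1 at 2408 ± 153, PKM at 1114 ± 53.4 and LDHA at 878 ± 174. PGAM1 followed at 415 ± 23.7, SLC16A3 at 363 ± 28.5, PGK1 at 106 ± 4.19, ENO2 at 71.9 ± 12.1 and SLC16A1 at 68.7 ± 12.6; only the last pair of neighbours had overlapping ranges. In the knockout libraries LDHB moved from the second to the fourth place at 999 ± 109, behind ENO1 at 2043 ± 203 and PKM at 1390 ± 154, and just ahead of LDHA at 742 ± 61.0. ENO2 moved to the last place at 21.2 ± 5.68, below SLC16A1 at 68.3 ± 11.9. No pair of neighbours overlapped in the knockout. These ranges hold the spread between libraries only. The annotated coding transcripts run from 2002 to 4830 bases for SLC16A3 and from 2405 to 4887 for PGK1. Places in the order therefore depend on the length chosen. All 10 genes together took 0.647% to 0.686% of reads outside mitochondrial genes in the parental RNA-seq libraries and 0.660% to 0.662% in the knockout libraries. Without GAPDH these shares were 0.198% to 0.207% and 0.255% to 0.261%. The knockout shares of all 10 lay within the parental range, while those without GAPDH lay above it. With the deposited scaling both sums were lower in the knockout. All 10 summed to 62499.6 and 60154 normalised reads in parental and 32111 and 28316 in knockout libraries. Without GAPDH the sums were 18858 and 18390.4 in parental and 12702 and 10902 in knockout libraries.

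The parental TSS libraries, in which decapped 5′ ends had been ligated to an oligonucleotide, gave much the same values as the RNA-seq libraries of the same RNA. LDHB read 7088 and 7050.2 in the TSS libraries, -0.17 and -0.12 log2 units from the paired RNA-seq values, which is far above the knockout values. After centring, its mean TSS difference was -0.012. GAPDH read 43898 and 43203 (0.01 and 0.05 from its RNA-seq pair), and ENO2 read 145 and 156 (-0.08 and -0.32). LDHA read 1497 and 1683, with differences of opposite sign (0.12 and -0.12). PGK1 had the lowest mean difference of the 10, at 313 and 318 (-0.27 and -0.32), and without the RNA-seq pair its knockout fold change turned to 0.02 (limma adjusted p = 0.953). The median difference of all genes was -0.10 in pair 1 and -0.13 in pair 2, and no test was made on 2 pairs. These are gene totals and hold no start positions.

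The authors' deposited table compares all 4 parental libraries, TSS included, with the knockout, so it shares libraries with the fit above and is no second experiment. In the authors' deposited table the parental over knockout log2 fold change was 2.39 for LDHB (adjusted p = 3.27e-114), 1.67 for ENO2 (2.24e-11) and 1.23 for GAPDH (4.04e-42). The authors' deposited table also has ENO1 lower in the knockout (0.26, adjusted p = 0.0316), where 24.3% of all its genes were lower and 4.32% higher. LDHA (0.24, adjusted p = 0.151) and PKM (-0.25, adjusted p = 0.0721) did not pass 0.05 in the authors' deposited table.

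Upstream of these steps, glucose uptake and upper glycolysis had called genes on both sides: of 11 measured of 14, 4 fell and 3 rose, with a median of 0.07, where 25.1% of all genes fell and 3.77% rose. ALDOA, the aldolase that splits the sugar, fell from 2790.1 ± 3.12 to 1085 ± 115 (log2 fold change -1.37, SE 0.15, limma adjusted p = 9.27e-18), while SLC2A1, the glucose carrier GLUT1, rose from 134 ± 34.0 to 815 ± 84.0 (log2 fold change 2.61, limma adjusted p = 6.07e-42). Among 17 relatives of the members (isozymes and other SLC16A carriers), 6 were measured, 2 fell and 0 rose, with a median of -0.67. SLC16A6 fell by 1.64 and SLC16A7, the carrier MCT2, fell by 1.02 on the log2 scale (limma adjusted p = 4.00e-06 and 0.00337). The 3 partner proteins of the lactate carriers had 1 lower and 0 higher: NPTN fell by 0.69 (limma adjusted p = 0.0165; after centring -0.38, 0.109), and EMB, embigin, gave 0.09 (limma adjusted p = 0.804).

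For pyruvate entry into mitochondria, 4 of 15 fell and 0 rose, with a median of -0.41, a share close to the 25.1% of all genes that fell. MPC2, a subunit of the pyruvate carrier, fell by 0.99 and PDP2, a pyruvate dehydrogenase phosphatase, fell by 0.57 (limma adjusted p = 0.000782 and 0.0245); after centring PDP2 was not called (-0.26, limma adjusted p = 0.151). In the shuttles that carry cytosolic NADH electrons into mitochondria, the other outlet for the NADH of GAPDH, 5 of 9 measured genes fell and 0 rose, with a median of -0.54, against 25.1% and 3.77% of all genes. MDH1, cytosolic malate dehydrogenase, fell from 471 ± 14.0 to 177 ± 25.2 (log2 fold change -1.41, SE 0.19, limma adjusted p = 4.72e-12), and GOT2, a mitochondrial aminotransferase, fell by 0.85 (limma adjusted p = 5.32e-05). Of 8 measured regulators of glycolysis 2 fell and 0 rose, with a median of -0.40, again close to the 25.1% of all genes. HIF1A, the oxygen-regulated transcription factor, fell by 0.80 (limma adjusted p = 0.000267) and VHL, which targets it for degradation, fell by 0.47 (limma adjusted p = 0.0449; after centring -0.16, 0.309, not called). Of 13 measured targets of that factor outside glycolysis, 3 fell and 1 rose, with a median of -0.09, beside 25.1% and 3.77% of all genes. BHLHE40, a transcriptional repressor, fell by 2.84 and NDRG1, a stress-response gene, rose by 0.93 on the log2 scale (limma adjusted p = 7.49e-27 and 6.39e-05). After centring, where 16.2% of all genes were lower and 14.6% higher, the counts were 3 lower and 6 higher in upper glycolysis, 2 and 1 among the relatives, and 0 and 1 among the carrier partners. They were 1 and 2 for pyruvate entry, 3 and 0 for the shuttles, 1 and 1 for the regulators and 1 and 4 for the targets.

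**Figure D4:**
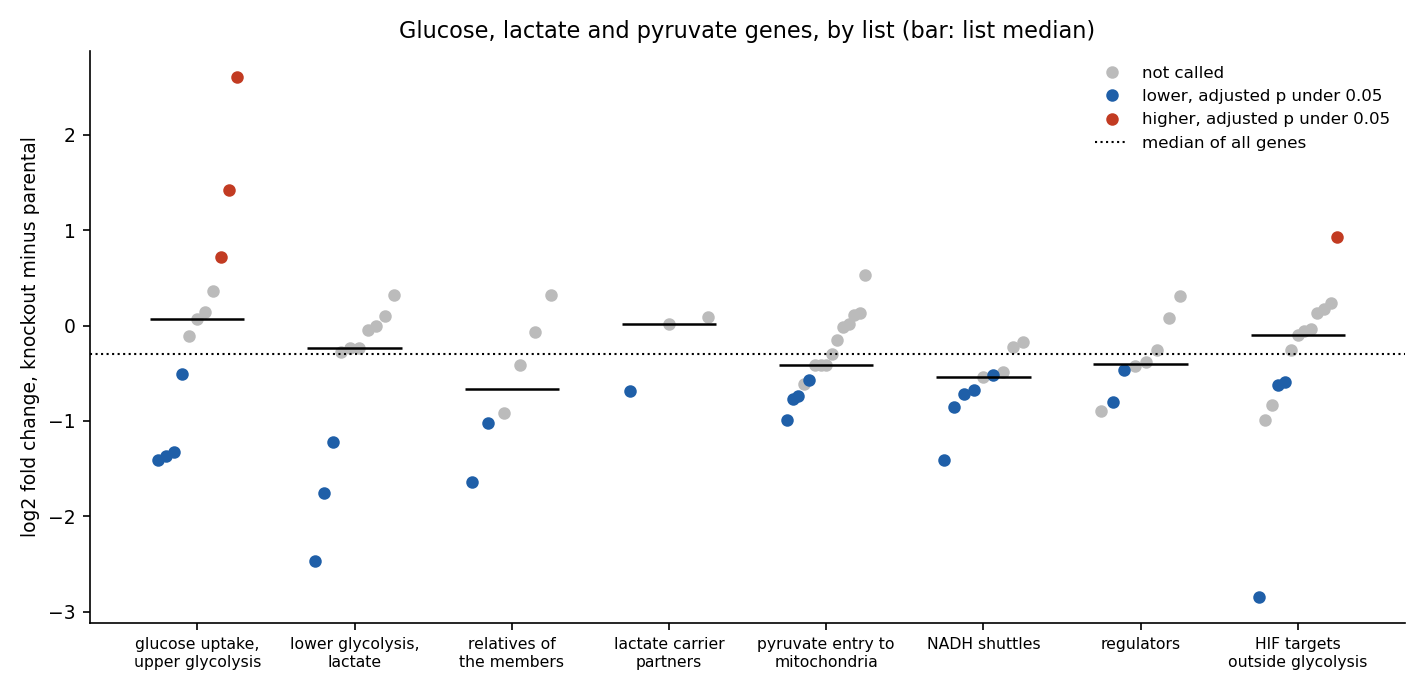
Log2 fold change (knockout minus parental RNA-seq libraries, deposited scaling) of each measured gene of the glucose, lactate and pyruvate lists, with calls in colour, a bar at each list's median and a dotted line at the median of all genes (-0.29). LDHB at -2.46 is the lowest of the 10 members, and SLC2A1 at 2.61 the highest gene shown.

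The genes nearest to LDHB in pattern over the 4 RNA-seq libraries, by Euclidean distance between log2 values centred on each gene's mean among 7280 genes above the median level, were RPL13 (distance 0.04), RPL35 (0.05) and PRKCSH (0.06). RPL13 and RPL35 encode proteins of the large ribosomal subunit and gave log2 fold changes of -2.46 and -2.44; PRKCSH encodes a subunit of glucosidase II of the endoplasmic reticulum and gave -2.44. Near to LDHA were RHOT1 (distance 0.03) and METTL10 (0.03), with log2 fold changes of -0.23 and -0.24. Of 77 ribosomal protein genes, taken by symbol with their paralogs, 74 fell and 0 rose, with a median log2 fold change of -2.94, and 18 of the 77 had a less negative fold change than LDHB. The fold changes of LDHB and of these genes come from the same libraries, so their nearness is a description.

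Several members share sequence or positions with other genes, and the sources used here do not say whether strand was used in counting. Values were given for 3 pseudogenes of members, of which the most abundant, PGAM1P8, reached 14 reads in any library. The 1 listed for GAPDH reached 8 reads. GAPDH has many pseudogenes, and how reads were shared between them and GAPDH was not tested, so its value may be inexact. The longest stretch shared by the principal transcripts of ENO1 and ENO2 is 50 bases. SLC16A3 overlaps 482 exonic bases of CSNK1D on the opposite strand (291 and 381 in parental and 197 and 183 in knockout libraries), and SLC16A1 overlaps 175 bases of SLC16A1-AS1 (40.4 and 28.0 in parental, 24.4 and 33.5 in knockout). PGK1 overlaps 97 bases of ATP7A on its own strand. Other overlaps are with loci not analysed here. GAPDH overlaps 422 exonic bases of AC006064.4 and ENO1 overlaps 126 of ENO1-AS1, both on the opposite strand. On the same strand, PGK1 overlaps 95 bases of AL356235.1 and SLC16A3 overlaps 61 of MIR6787. In GENCODE release 29 on GRCh38, LDHB (ENSG00000111716.12) spans chromosome 12, 21635342 to 21757857, and LDHA (ENSG00000134333.13) chromosome 11, 18394388 to 18408425. GAPDH (ENSG00000111640.14) spans chromosome 12, 6533927 to 6538374, and ENO2 (ENSG00000111674.8) the same chromosome, 6913745 to 6923698.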

How the data were processed

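RNA-seq and TSS libraries of non-polysomal RNA were analysed from 1 table. The authors deposited a signal per gene and library, which is gene reads divided by 1 size factor. STAR 2.6, RSEM, SAMtools, DESeq2 and GRCh38 are named in the submitters' processing notes; use of strand is not given in the sources used here. All deposited signal values (100% per library) divided by what 1 read is worth gave whole numbers to within 0.001 reads, so reads were recovered. The authors' deposited comparison gives a log2 fold change with its error, a linear fold (ratio), a test score, p-values and their −log10. The protocol names ERCC spike-ins; the table held 0 ERCC rows, so the scaling could not be rebuilt.

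Differences were tested two-sided on log2(value + 1) by limma with an intensity trend (version 3.58.1, under R 4.3.3) and Benjamini-Hochberg adjustment. Genes needed a value of 1 or more in 2 or more RNA-seq libraries. With the deposited scaling the estimated prior weight was unlimited, so every spread in that fit is that of the trend. This does not hold after centring, so the p-values of the scalings rest on different spreads. edgeR 4.0.16 and DESeq2 1.42.0 ran on recovered reads as alternatives. The procedure was tested on simulated data. All pairs of libraries differed beyond counting noise (median chi-square over its expected median at least 1.85). Identifiers matched GENCODE release 29 for 14535 genes (99.7%). The sequences are from an extract of RefSeq starts (GRCh38.p14), in which 9 of the 10 members had an entry. A missing entry there does not mean that RefSeq lacks the gene. The Wilson intervals cover counting error only, since reads are not molecules. The limma intervals of the fold changes rest on the spread between libraries.

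The members and lists were chosen with earlier results of these data known. Named genes are the members, LARP1, per list the 2 genes with the smallest adjusted p, 3 nearest patterns each for LDHA and LDHB (1 of those for LDHA is not reported here), and the most abundant pseudogene; AC010197.2, CSNK1D, SLC16A1-AS1 and ATP7A were named for their overlap.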

Additional observations from a re-analysis of the deposited data

How the results depend on the processing

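LDHB, ENO2 and GAPDH fell with a call under every alternative run (limma, edgeR or DESeq2 adjusted p at most 0.00159, 0.0115 and 0.0145, each without the intensity trend). The LDHB to LDHA ratio kept its direction under all 8 alternatives (at its least, -1.999 without parental replicate 1). The replicate block and the normalised values could not change that direction, since neither alters the ratio within a library beyond the added 1. The members called higher were 2 (PGAM1 and PKM) in place of 0 after centring, with TMM factors, with edgeR and TMM and with DESeq2, and 0 to 1 leaving out 1 replicate. The signs of the members that were not called depended on scaling: PGK1, ENO1, LDHA, SLC16A1 and SLC16A3 gave 0.0345, 0.0718, 0.0800, 0.303 and 0.262 after centring, 0.0199, 0.0580, 0.0661, 0.288 and 0.248 with TMM factors, 0.0201, 0.0544, 0.0560, 0.277 and 0.246 with edgeR and TMM, and 0.0268, 0.0606, 0.0639, 0.287 and 0.251 with DESeq2. PGK1 also gave 0.0194 with the TSS libraries as parental libraries. Leaving out 1 replicate, SLC16A3 ran from -0.14 to 0.0412, SLC16A1 from -0.20 to 0.18 and PGAM1 from -0.0588 to 0.25.

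Of all genes, the number lower was 2365 after centring, 1962 without the intensity trend, 1557 with DESeq2, 1803 with a log2 fold change of at least 1, and 1673 to 4294 leaving out 1 replicate (2164 and 1673 without parental replicate 1 or 2, 4294 and 2348 without knockout replicate 1 or 2), against 3649. The number higher was 2119 after centring, 1976 with TMM factors, 2130 with edgeR and TMM, 983 with DESeq2, 282 without the trend, 274 with the fold limit, 925 with the TSS libraries as parental libraries, 828 with RNA-seq and TSS values averaged and 262 to 469 leaving out 1 replicate (293, 328, 262 and 469 in that order), against 549. The number lower was 2437 with TMM factors and 2612 with edgeR and TMM. The cause of these shifts was not tested. With the replicate number as a block, 2771 genes were lower and 388 higher and the members stayed at 3 and 0. The log2 ratio difference was -2.23, as without the block. Over all genes, same-numbered parental and knockout libraries did not deviate together (r = -0.02). That correlation cannot show whether same-numbered libraries were prepared together. A lone library left in a group is assumed to vary like the others. Depth limits ENO2, which had 61 to 160 reads in the RNA-seq libraries.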
